A study of Homo sapiens with 6 samples.

Results

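The ATP-binding cassette (ABC) genes were taken as the protein-coding genes whose symbol starts with ABC, followed by a letter from A to G and a digit. The rule found 45 genes among the 19951 protein-coding genes and the 58735 genes of the deposited table, and no expression value entered it. RNA-seq was available for PC9-BrM3, a subline that was derived from the lung adenocarcinoma cell line PC9 and readily forms brain metastases. In 3 libraries AKR1B10, which encodes an aldo-keto reductase, was silenced with AKR1B10-targeted shRNA vector 1 (BrM3-shAKR1B10). The other 3 libraries came from cells with negative control shRNA (BrM3-shNC), whose genotype the sample labels give as wild type. All 6 libraries are labelled as lung cancer cells in routine culture, and the labels name no exposure to pemetrexed (PEM), the antifolate to which the study addressed resistance. A single shRNA vector in a single cell line was profiled, and the labels do not state whether replicates are separate cultures, so that p-values measure the spread between these libraries.

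ABC proteins bind and hydrolyse ATP at nucleotide-binding domains, and most of them use that energy to move a substrate across a membrane. The multidrug resistance proteins of the ABCC subfamily (MRPs) export organic anions, including conjugates with glutathione or glucuronate, and several of them and ABCG2 are known to export antifolates. ABCA and ABCG members move cholesterol and phospholipids, ABCB members of the inner mitochondrial membrane serve iron and heme metabolism, and ABCD members carry fatty acids into peroxisomes. ABCE1 and the ABCF members have the ATP-binding domains but no transmembrane part, and work on ribosomes.

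The deposited unit was FPKM, fragments scaled by gene length and by library size, with a scaling between libraries already in it. Reads per gene were recovered from these values, with a total between 16964504 and 18709028 per library. In a gene of 1000 bases, 3 reads correspond to between 0.163 and 0.177 FPKM, which was taken as the floor and covers counting error only. AKR1B10 was at 108, 107 and 110 FPKM in BrM3-shAKR1B10 and at 799, 775 and 772 FPKM in BrM3-shNC, with no overlap. Its log2 fold change was -2.85 (SE 0.0300, limma adjusted p = 1.6e-07). The epithelial markers EPCAM, KRT7, KRT8, KRT18, KRT19 and CDH1 summed to between 2986 and 3348 FPKM in the 6 libraries. The 4 lung lineage markers NKX2-1, NAPSA, SFTPB and SFTPC were each below 1 FPKM in every library, summing to between 0.465 and 0.927 FPKM. Of the 14 markers of leukocytes, endothelium, fibroblasts, glia, neurons and erythroid cells, CDH5 and COL1A1 alone had a mean of at least 1 FPKM. CDH5 was at 1.75 to 1.94 FPKM in BrM3-shAKR1B10 and at 1.09 to 1.17 FPKM in BrM3-shNC, while PECAM1 and VWF stayed at or below 0.513 FPKM. COL1A1 was at 1.15 to 1.33 FPKM against 1.96 to 2.02 FPKM, with COL1A2 at 0 reads in every library. Whether these markers have a part in the results below was not tested.

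The signature motif of the nucleotide-binding domain, leucine, serine, glycine, glycine and glutamine in that order, marks the family, and its codons are shown for the ABCC exporters expressed in these cells and for ABCG1. Each stretch is 45 bases of coding sequence of the longest coding transcript in GENCODE 29 (GRCh38), on the strand of the gene, with the 5 codons of the motif in capitals.
ABCC3: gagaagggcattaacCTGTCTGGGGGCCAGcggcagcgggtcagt
ABCC1: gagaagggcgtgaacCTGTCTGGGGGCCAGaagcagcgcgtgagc
ABCC2: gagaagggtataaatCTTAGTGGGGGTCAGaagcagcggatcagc
ABCC5: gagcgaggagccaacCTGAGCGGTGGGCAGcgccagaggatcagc
ABCC10: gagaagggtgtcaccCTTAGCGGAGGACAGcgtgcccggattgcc
ABCC4: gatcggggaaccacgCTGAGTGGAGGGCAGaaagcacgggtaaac
ABCG1: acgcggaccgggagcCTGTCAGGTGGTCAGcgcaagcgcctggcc

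The ABCC3 stretch spans the junction of exons 17 and 18 of 31, between chr17:50669523-50673009 on the plus strand. The stretches of ABCC1 (chr16:16083537-16086862, plus strand) and ABCC2 (chr10:99817479-99818828, plus strand) also cross from exon 17 into exon 18. Those of ABCC5 (chr3:183963538-183963582, minus strand, exon 15), ABCC10 (chr6:43441895-43441939, plus strand, exon 9), ABCC4 (chr13:95178005-95178049, minus strand, exon 12) and ABCG1 (chr21:42282319-42282363, plus strand, exon 7) lie within a single exon. Against ABCC3, the number of identical bases among the 45 was 38 for ABCC1, 34 for ABCC2, 29 for ABCC5, 26 for ABCC10, 24 for ABCC4 and 24 for ABCG1. Of the 24 genes tested, 11 encode the exact motif, and ABCG2, ABCA1 and ABCA4 do not. The Walker A motif, which holds the phosphates of ATP, was found at 2 places in 16 of the 24 coding sequences and at 1 place in 8. The 45 coding sequences encode between 599 and 5058 residues.

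With a mean of at least 1 FPKM over the 6 libraries, 24 of the 45 genes were tested, and no member passed this filter through 1 group alone. Their reads per library ranged from 104 to 21532. A gene is said below to have risen or fallen where the limma adjusted p over all 13150 genes tested was under 0.05, and is named as called where the log2 fold change, on log2(FPKM + 0.1), was also beyond 0.5 in either direction. By that rule 3 members were called higher in BrM3-shAKR1B10 (ABCC3, ABCC10 and ABCA4) and 1 lower (ABCG1). Among all genes tested, 5.83% were called higher and 7.45% lower. By the adjusted p alone 11 members rose and 4 fell, where 19.4% of all genes tested rose and 23.1% fell. With no filter on low genes, where all 58735 genes enter the adjustment, 6 members rose and none fell. In that setting 1558 of all genes rose and 2000 fell. Under it the adjusted p was 0.13 for ABCC2, 0.093 for ABCF3, 0.083 for ABCA3, 0.069 for ABCA12 and 0.055 for ABCD3 among those that rose, and 0.12 for ABCA2, 0.076 for ABCB10, 0.075 for ABCA1 and 0.072 for ABCG1 among those that fell. The groups did not overlap for 11 members that were higher and 5 that were lower, with a background of 25.5% and 29.2%. The median log2 fold change of the 24 members was 0.06, against -0.01 for all genes tested. The members' median was 0.01 without BrM3-shNC replicate 1 and 0.09 without BrM3-shNC replicate 2, with that of all genes at -0.01 in both. With TPM and quantile scaling the members' median was 0.09 and 0.10, and that of all genes 0.03 and 0.01.

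**Figure D1:**
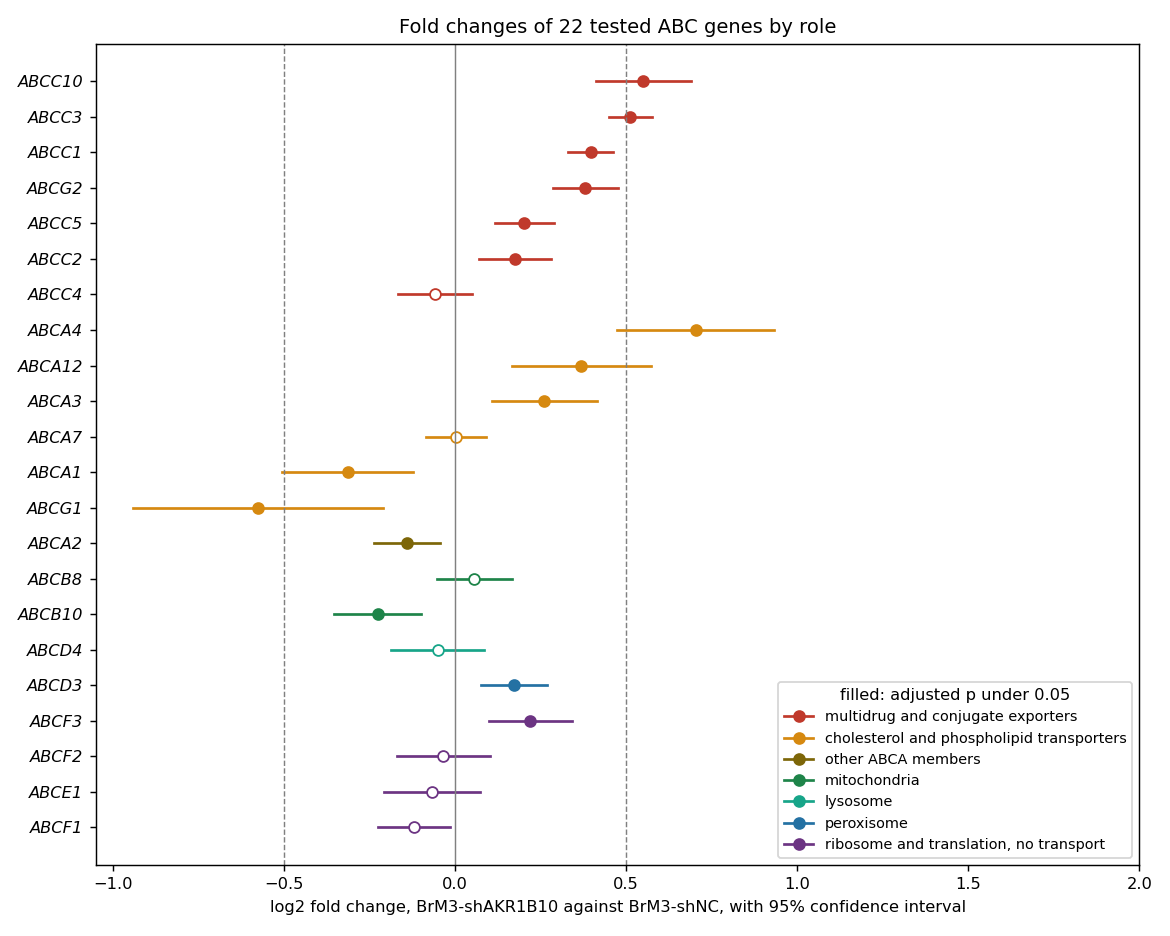
Log2 fold change of 22 tested ABC genes in BrM3-shAKR1B10 against BrM3-shNC (horizontal axis, points) with its 95% confidence interval (lines), ordered and coloured by role, with dashed lines at the fold threshold of 0.5 in either direction and filled points for an adjusted p under 0.05. Of the 7 exporters, 6 lie to the right of 0 with filled points, and ABCC4 lies at -0.06 with an open point.

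By mean FPKM over the 6 libraries, the exporters ABCC3, ABCC2 and ABCC1 were the 3 most abundant members. The exporters ABCC12, ABCB1 and ABCB5 had at most 1 read in any library. Levels are compared here in FPKM, which is per gene length. ABCC3, an MRP that exports glucuronate conjugates and bile acids, had the highest level, ranking 267 among the 19951 protein-coding genes by mean FPKM. ABCC2, which exports conjugates across the apical membrane, ranked 555, ABCC1, the first MRP to be described in drug-resistant lung cancer cells, ranked 1241, the ribosome-associated ABCF1 ranked 1417, and ABCC5, an exporter of cyclic nucleotides and antifolates, ranked 1502. In BrM3-shNC the libraries of ABCC1 (27.8 to 28.4 FPKM) lay below those of ABCF1 (29.7 to 31.8 FPKM), and in BrM3-shAKR1B10 those of ABCC1 (37.0 FPKM in each) lay above those of ABCF1 (27.4 to 29.1 FPKM). ABCF1 and ABCC5 changed order in the same way, with ABCC5 at 25.3 to 27.0 FPKM in BrM3-shNC and 29.6 to 30.2 FPKM in BrM3-shAKR1B10.

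**Figure D2:**
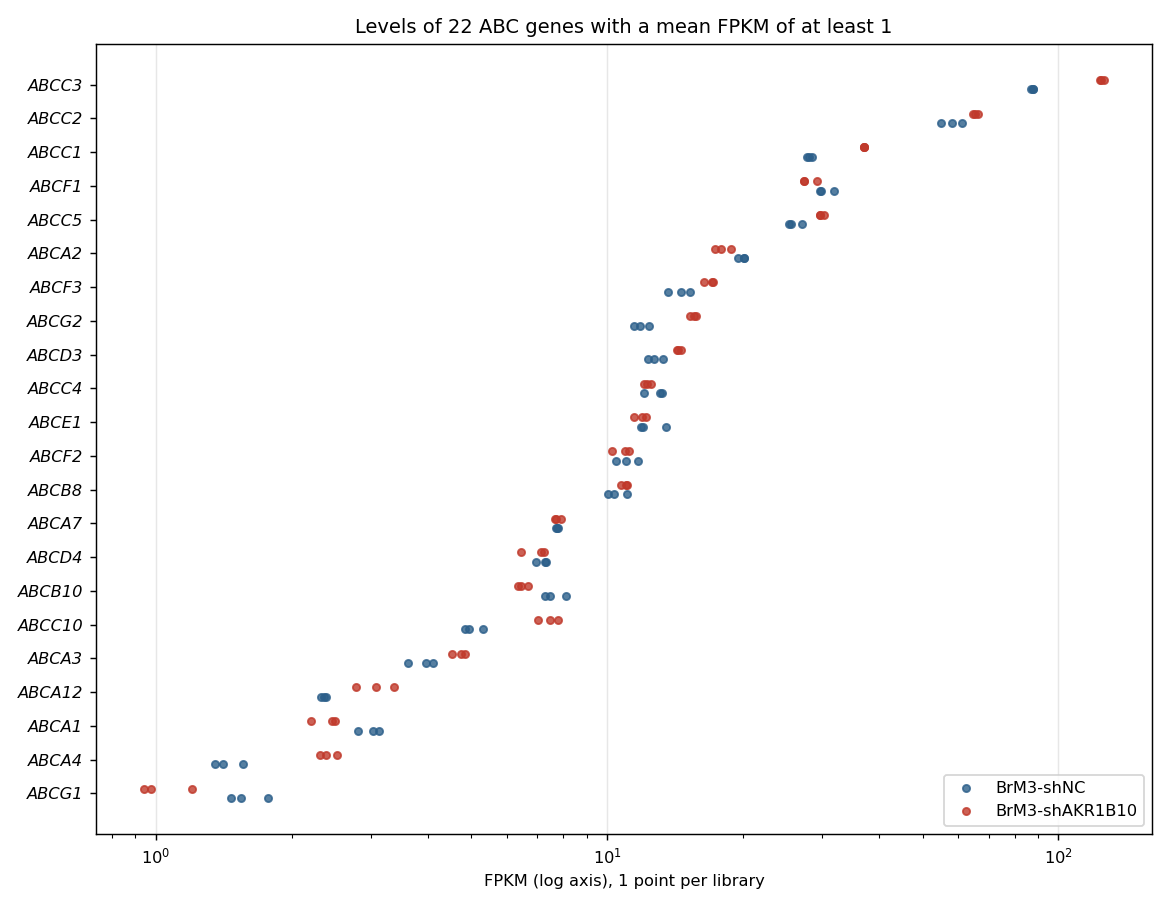
FPKM of 22 tested ABC genes in each library (horizontal log axis, 1 point per library), ordered by mean level, in BrM3-shNC and BrM3-shAKR1B10. ABCC3 stands highest at 86.9 to 126 FPKM and ABCG1 lowest at 0.941 to 1.77 FPKM.

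Of the 11 multidrug and conjugate exporters, 7 were tested, and 6 of them rose with no overlap between the groups, while none fell. Over all genes tested 19.4% rose and 23.1% fell, and 25.5% were higher with no overlap. By the fold rule ABCC3 and ABCC10 alone were called. The median log2 fold change of the 7 exporters was 0.38. Roles were assigned with earlier results of these data known, so that the count and the median describe this group only. In such bulk libraries, more cells that express a gene and more of its RNA per cell cannot be told apart, nor can fewer cells and less RNA per cell. ABCC3 was at 126, 124 and 124 FPKM in BrM3-shAKR1B10 and at 87.7, 86.9 and 87.8 FPKM in BrM3-shNC. Every silenced library was above every control library, and the mean was 143% of the control mean. The log2 fold change was 0.51 (SE 0.0265, limma adjusted p = 3.3e-05), just past the fold threshold. ABCC10, an MRP with a broad range of anticancer drugs among its substrates, was at 7.46, 7.02 and 7.78 FPKM in BrM3-shAKR1B10 and at 4.94, 4.85 and 5.31 FPKM in BrM3-shNC. The lowest silenced library exceeded the highest control library, with a log2 fold change of 0.55 (SE 0.0583, limma adjusted p = 5.6e-04). With a pseudocount of 1 its log2 fold change was 0.48, under the fold threshold. ABCC10 shares 79 exonic bases, 0.977% of its length, with DLK2 on the opposite strand, which held 57 to 86 reads per library beside 663 to 1115 reads of ABCC10.

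ABCC1 was at 37.0 FPKM in each silenced library and at 27.8, 28.4 and 28.1 FPKM in BrM3-shNC. Its rise of 0.40 on the log2 scale (SE 0.0275, limma adjusted p = 1.0e-04) stayed under the fold threshold, with a 95% confidence interval from 0.33 to 0.46. ABCG2, the breast cancer resistance protein, was at 15.2, 15.5 and 15.7 FPKM in BrM3-shAKR1B10 and at 12.4, 11.8 and 11.5 FPKM in BrM3-shNC. The groups were apart by more than their own spread, with a log2 fold change of 0.38 (SE 0.0398, limma adjusted p = 5.4e-04). ABCC5 was at 29.6, 29.7 and 30.2 FPKM against 27.0, 25.5 and 25.3 FPKM, a rise of 0.20 on the log2 scale (SE 0.0357, limma adjusted p = 0.0048). ABCC2 was at 66.2, 64.5 and 65.5 FPKM against 61.1, 54.8 and 58.1 FPKM, a rise of 0.17 on the log2 scale (SE 0.0443, limma adjusted p = 0.020). The control libraries of ABCC2 were spread over a wider range than the silenced ones, and its adjusted p was 0.064 without BrM3-shAKR1B10 replicate 1 and 0.058 without BrM3-shAKR1B10 replicate 3.

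ABCC4, which exports cyclic nucleotides and nucleotide analogs, was at 12.5, 12.0 and 12.2 FPKM in BrM3-shAKR1B10 and at 13.2, 12.1 and 13.1 FPKM in BrM3-shNC. The groups overlapped, and the log2 fold change was -0.06 (limma adjusted p = 0.33) with a 95% confidence interval from -0.17 to 0.05. The 4 exporters that were not tested had few or no reads. ABCB1, the P-glycoprotein that is the best known drug pump of the family, had 1 read in BrM3-shAKR1B10 replicate 2 and 0 reads in the other libraries. ABCB5 had 0 reads in every library, and ABCC12 had 1 read in each of 2 control libraries. ABCC11 was at 0.211, 0.275 and 0.210 FPKM in BrM3-shAKR1B10 and at 0.158, 0.106 and 0.129 FPKM in BrM3-shNC, from 13 to 36 reads per library. With limma's voom on the recovered reads of all genes with at least 10 reads over the 6 libraries, an alternative chosen after the data were seen, its log2 fold change was 0.81 (SE 0.299, adjusted p = 0.044). By that fit 5.78% of 21834 genes were called higher and 6.23% lower, and 4 members higher and 1 lower. ABCC11 shares 293 exonic bases, 4.04% of its length, with LONP2 on the opposite strand, which held between 2299 and 2511 reads, and whether counting used the strand is not given in the sources used here.

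Summed over the 45 genes, the level was 467, 465 and 467 FPKM in BrM3-shAKR1B10 and 404, 399 and 407 FPKM in BrM3-shNC. The 11 exporters made up 62.4 to 63.1% of that sum in the silenced libraries and 56.3 to 58.0% in the control libraries. ABCC3 by itself made up 26.5 to 27.1% against 21.6 to 21.8%. These shares describe the libraries and were not tested.

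Among the 10 cholesterol and phospholipid transporters, 6 were tested, of which 3 rose and 2 fell. Over all genes tested 19.4% rose and 23.1% fell. ABCA1 and ABCG1, which pass cellular cholesterol to apolipoprotein A-I and to HDL particles, were the pair that fell. ABCG1 was at 1.20, 0.941 and 0.977 FPKM in BrM3-shAKR1B10 and at 1.47, 1.55 and 1.77 FPKM in BrM3-shNC, from 104 to 198 reads per library. The groups did not overlap, and the silenced mean was 65.2% of the control mean. The log2 fold change was -0.58 (SE 0.153, limma adjusted p = 0.023), with a 95% confidence interval from -0.94 to -0.21. This call was lost without BrM3-shAKR1B10 replicate 2 (adjusted p = 0.063), without BrM3-shAKR1B10 replicate 3 (adjusted p = 0.062), without BrM3-shNC replicate 2 (adjusted p = 0.056) and without BrM3-shNC replicate 3 (adjusted p = 0.078). With no filter on low genes the adjusted p was 0.072, and with a pseudocount of 1 the log2 fold change was -0.35.

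ABCA1 was at 2.49, 2.45 and 2.20 FPKM in BrM3-shAKR1B10 and at 2.80, 3.12 and 3.03 FPKM in BrM3-shNC. The log2 fold change was -0.31 (SE 0.0800, limma adjusted p = 0.020), and the adjusted p was between 0.054 and 0.066 without BrM3-shAKR1B10 replicate 3 or BrM3-shNC replicates 2 or 3. ABCA4, known from photoreceptors as a flippase of retinoid-bound phospholipid, was the tested member with the highest fold change. It was at 2.51, 2.38 and 2.31 FPKM in BrM3-shAKR1B10 and at 1.56, 1.41 and 1.35 FPKM in BrM3-shNC. All silenced libraries lay above all control libraries, with a log2 fold change of 0.70 (SE 0.0958, limma adjusted p = 0.0016) that became 0.48 with a pseudocount of 1. ABCA12, a lipid transporter of the skin barrier, rose by 0.37 on the log2 scale (SE 0.0852, limma adjusted p = 0.014). ABCA3, which loads surfactant lipid into lamellar bodies of alveolar cells, rose by 0.26 (SE 0.0639, limma adjusted p = 0.017), and its adjusted p was 0.058 without BrM3-shAKR1B10 replicate 1 and 0.052 without BrM3-shAKR1B10 replicate 3. ABCA7 was at 7.65 to 7.91 FPKM in BrM3-shAKR1B10 and at 7.70 to 7.79 FPKM in BrM3-shNC, with a log2 fold change of 0.00 and a 95% confidence interval from -0.09 to 0.09.

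**Figure D3:**
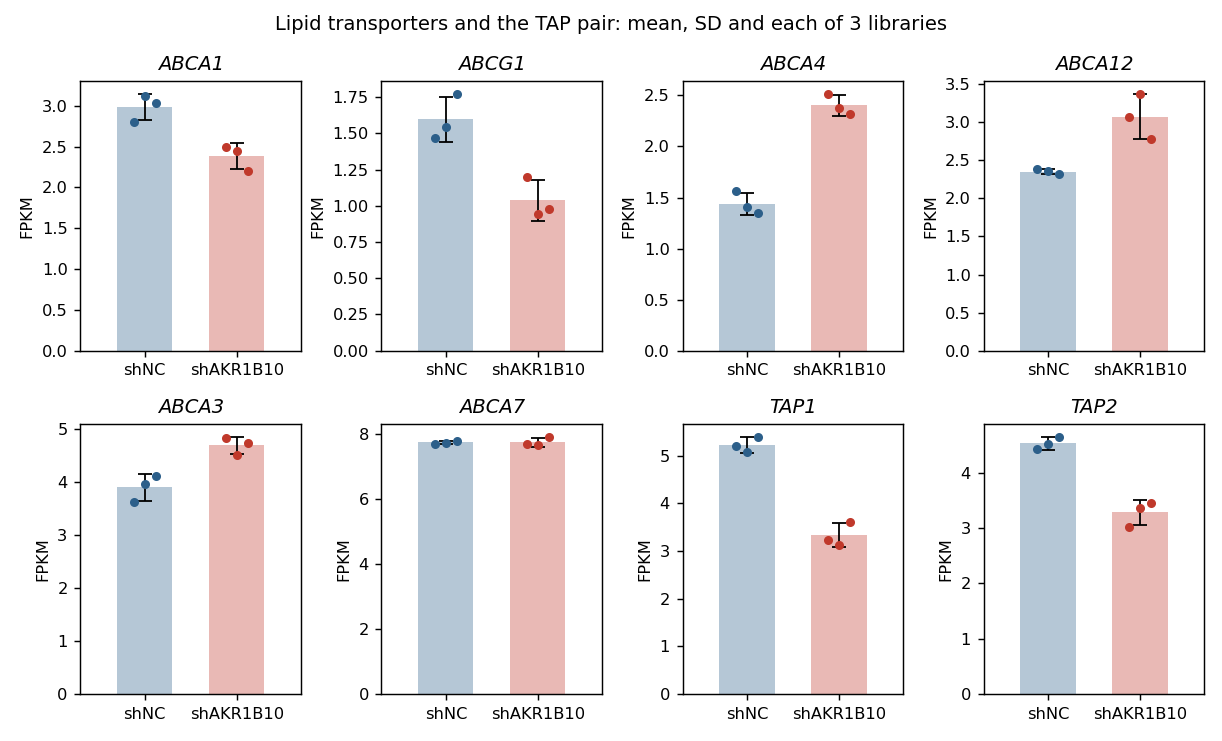
FPKM of 6 lipid transporters and of TAP1 and TAP2 in BrM3-shNC and BrM3-shAKR1B10 (vertical axes from 0, bars for the mean, error bars for the SD and points for the 3 libraries of each group). ABCA1, ABCG1, TAP1 and TAP2 are lower in every silenced library, ABCA4, ABCA12 and ABCA3 are higher, and the groups overlap for ABCA7.

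Promoter windows of RefSeq (GRCh38.p14), from 250 bases before to 50 bases after a start, matched 35 of the 45 members and 18 of the 24 tested. ABCA4, ABCC1, ABCC3 and ABCG1 were not matched. A pair of stretches is shown, from a called exporter and from a cholesterol exporter, with the motif matches in capitals. The ABCC10 stretch (chr6:43427380-43427406, plus strand, 161 to 135 bases before a start) holds, in this order, an E-box, a TATA box and the antioxidant response element core, each spelled out below.
ABCC10: CACGTGagaggtTATAAATGACGTTGC
The ABCA1 stretch (chr9:104928202-104928231, minus strand, 76 to 47 bases before a start) holds, on the opposite strand, a DR4 element, the direct repeat bound by liver X receptors, in a form that was added to the search after this sequence had been read.
ABCA1: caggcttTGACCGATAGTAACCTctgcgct

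Both strands were searched in all 35116 promoter windows. The antioxidant response element core, written as TGACNNNGC or TGAGNNNGC, was in 29.1% of all windows and in 10 of the 25 windows of tested members, among them those of ABCC10, ABCG2 and ABCC4. The DR4 element, in its consensus form or in that of ABCA1, was in 0.0228% of all windows and, among members, in that of ABCA1 alone. Since its own form was added to the search, the match in ABCA1 was fixed in advance. The E-box (CACGTG) was in 7.26% of all windows and in 6 of those 25. The TATA box (TATAAA) was in 11.5% of all windows and in 5 of the 25, the GC box (GGGCGG) in 45% and 15, the CCAAT box (CCAAT) in 34.6% and 4, and the xenobiotic response element core (GCGTG) in 36.5% and 16. The letters of the TATA box and of the antioxidant response element core adjoin without overlap in the ABCC10 stretch. A match describes the letters in these windows, and ABCC10, which rose, and ABCC4, whose groups overlapped, both hold the antioxidant response element core.

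The tested members of the other compartments stayed within 0.23 of 0 on the log2 scale. In mitochondria, ABCB10, an exporter of the inner membrane needed for heme synthesis, fell to 6.44, 6.35 and 6.69 FPKM from 7.48, 7.28 and 8.10 FPKM, with a log2 fold change of -0.23 (SE 0.0531, limma adjusted p = 0.014). ABCB8, also of the inner membrane, was at 10.7 to 11.1 FPKM against 10.1 to 11.1 FPKM, and its groups overlapped. ABCD3, a peroxisomal fatty acid transporter, rose by 0.17 on the log2 scale (SE 0.0400, limma adjusted p = 0.014), with an adjusted p of 0.051 without BrM3-shAKR1B10 replicate 1. ABCD4, needed for release of vitamin B12 from lysosomes, overlapped between the groups, at 6.44 to 7.26 FPKM against 6.96 to 7.32 FPKM. ABCA2, a lipid transporter of the endolysosomal system, was at 17.4, 17.9 and 18.8 FPKM against 19.5, 20.1 and 20.1 FPKM. Its fall of 0.14 (log2 fold change -0.14, limma adjusted p = 0.030) rested on several libraries, with an adjusted p between 0.081 and 0.091 without BrM3-shAKR1B10 replicates 1 or 2 or BrM3-shNC replicates 2 or 3. It was also lost under TPM scaling (adjusted p = 0.11), quantile scaling (adjusted p = 0.12), with no filter (adjusted p = 0.12) and with no variance trend (adjusted p = 0.054), and passed in 9 of 17 alternative fits.

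Of the 4 members that act on ribosomes, ABCF3, a relative of yeast factors of translation control, rose by 0.22 on the log2 scale (SE 0.0509, limma adjusted p = 0.014). ABCF1, which binds the initiation factor eIF2, was at 27.4, 29.1 and 27.4 FPKM in BrM3-shAKR1B10 and at 29.7, 29.7 and 31.8 FPKM in BrM3-shNC. The groups of ABCF1 did not overlap, but its log2 fold change of -0.12 did not pass (SE 0.0439, limma adjusted p = 0.066), and it passed in 3 of 17 alternative fits, those with voom and that on protein-coding genes only (adjusted p between 0.031 and 0.046). ABCE1, which splits ribosomes after termination, was at 11.5 to 12.2 FPKM against 11.9 to 13.5 FPKM, and ABCF2 was at 10.2 to 11.2 FPKM against 10.5 to 11.7 FPKM, both with overlap. ABCE1 shares 276 exonic bases, 4.40% of its length, with OTUD4 on the opposite strand, which held 785 to 929 reads per library. ABCF2 shares 45.8% of its exonic length with the readthrough gene AC021097.2 on the same strand, which held at most 2 reads per library.

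The other 21 members were below the filter. ABCB5, ABCC9, ABCD2, ABCA6, ABCA8 and ABCA9 had 0 reads in all 6 libraries, and a further 5 (ABCB1, ABCC8, ABCC12, ABCG5 and ABCG8) never exceeded 3 reads. The highest of the untested genes was ABCB6, a porphyrin transporter, at 0.822 to 1.05 FPKM in BrM3-shAKR1B10 and 0.750 to 0.785 FPKM in BrM3-shNC. ABCB6 shares 54.7% of its exonic length with the readthrough gene AC068946.2, which held 3 to 12 reads per library. ABCB9 (0.656 to 0.871 FPKM against 0.581 to 0.823 FPKM) overlapped between groups. ABCA5 was at 0.377 to 0.413 FPKM against 0.258 to 0.346 FPKM, with a log2 fold change of 0.44 in voom on the recovered reads (adjusted p = 0.040), under the fold threshold. ABCC6, ABCB4, ABCA13, ABCG4, ABCA10 and ABCB11 were at 0 to 16 reads per library. Reads of ABCC6 can be split with the near-identical pseudogenes ABCC6P1 and ABCC6P2, which held at most 3 reads per library.

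Of the ABC proteins with other symbols, TAP1 and TAP2, the subunits of the peptide transporter that loads MHC class I molecules, both fell. TAP1 was at 3.24, 3.14 and 3.61 FPKM in BrM3-shAKR1B10 and at 5.22, 5.07 and 5.39 FPKM in BrM3-shNC, with a log2 fold change of -0.64 (SE 0.0672, limma adjusted p = 5.5e-04) that was called. TAP2 was at 3.03, 3.37 and 3.46 FPKM against 4.43, 4.53 and 4.65 FPKM, a log2 fold change of -0.45 (SE 0.0656, limma adjusted p = 0.0021) under the fold threshold. Every silenced library of the pair was below every control library. CFTR, the chloride channel of the ABCC subfamily, was listed at 0 in every library.

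The other export and sequestration genes (5 of 6 tested) had 1 called higher and none lower, against 5.83% and 7.45% of all genes tested. This was SLC47A2, a proton-coupled organic cation exporter, at 1.43, 1.65 and 1.79 FPKM against 1.04, 1.20 and 1.10 FPKM, with a log2 fold change of 0.50 (limma adjusted p = 0.026) at the threshold itself. Its call was lost when BrM3-shAKR1B10 replicates 2 or 3 or BrM3-shNC replicates 1 or 3 were left out, and also with a pseudocount of 1, no filter or quantile scaling. Of the 18 drug uptake carriers, 5 were tested. SLCO3A1, an organic anion carrier, was called lower, at 2.71, 2.50 and 2.81 FPKM against 4.88, 4.62 and 4.63 FPKM (log2 fold change -0.80, limma adjusted p = 1.8e-04). SLC22A4, a carrier of ergothioneine and organic cations, was called higher, at 1.97 to 2.29 FPKM against 1.32 to 1.69 FPKM (log2 fold change 0.51, limma adjusted p = 0.017), a call lost under the same 3 settings and without BrM3-shAKR1B10 replicates 1 or 2 or BrM3-shNC replicate 1.

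Among 17 tested genes of the transcription factors known to act on ABC genes and of KEAP1, the adaptor that targets NRF2 for degradation, 6 rose and 2 fell, and none was called. Over all genes tested 19.4% rose and 23.1% fell, with 5.83% called higher and 7.45% called lower. Of 7 tested targets of liver X receptors outside the family, 1 rose and 3 fell. PLTP, the phospholipid transfer protein, was called lower, at 44.5, 45.5 and 45.4 FPKM against 65.6, 71.5 and 68.5 FPKM (log2 fold change -0.60). SMPDL3A, a nucleotide phosphodiesterase, was called higher, at 2.28 to 2.99 FPKM against 1.49 to 1.71 FPKM (log2 fold change 0.66), a call lost with a pseudocount of 1. The list thus held called genes in both directions, with a median log2 fold change of -0.06.

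NRF2, the factor that binds antioxidant response elements, is known to act on several MRP genes. Of its targets outside the family 14 were tested, of which 4 rose and 4 fell, where 19.4% of all genes tested rose and 23.1% fell. HMOX1, heme oxygenase 1, was called higher, at 12.4, 10.7 and 11.4 FPKM against 4.28, 4.40 and 5.42 FPKM (log2 fold change 1.28, limma adjusted p = 1.7e-04). GCLC, the catalytic subunit of glutathione synthesis, was also called higher, at 16.5, 16.6 and 17.2 FPKM against 11.6, 11.4 and 11.5 FPKM (log2 fold change 0.54, limma adjusted p = 7.2e-05). SRXN1, sulfiredoxin, was called lower, at 14.5, 14.2 and 16.5 FPKM against 20.3, 25.2 and 27.7 FPKM (log2 fold change -0.68, limma adjusted p = 0.0046), a call lost with no filter. The median of the 14 was 0.08.

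Of the partners of the intracellular members, 12 translation factors had 5 that fell and none that rose, with a median log2 fold change of -0.09 and none called. Over all genes tested 23.1% fell and 19.4% rose. The 11 peroxisomal partners had 5 that rose and 2 that fell. Of 10 tested iron-sulfur and heme partners in mitochondria, 3 rose and 3 fell, and none was called.

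**Figure D4:**
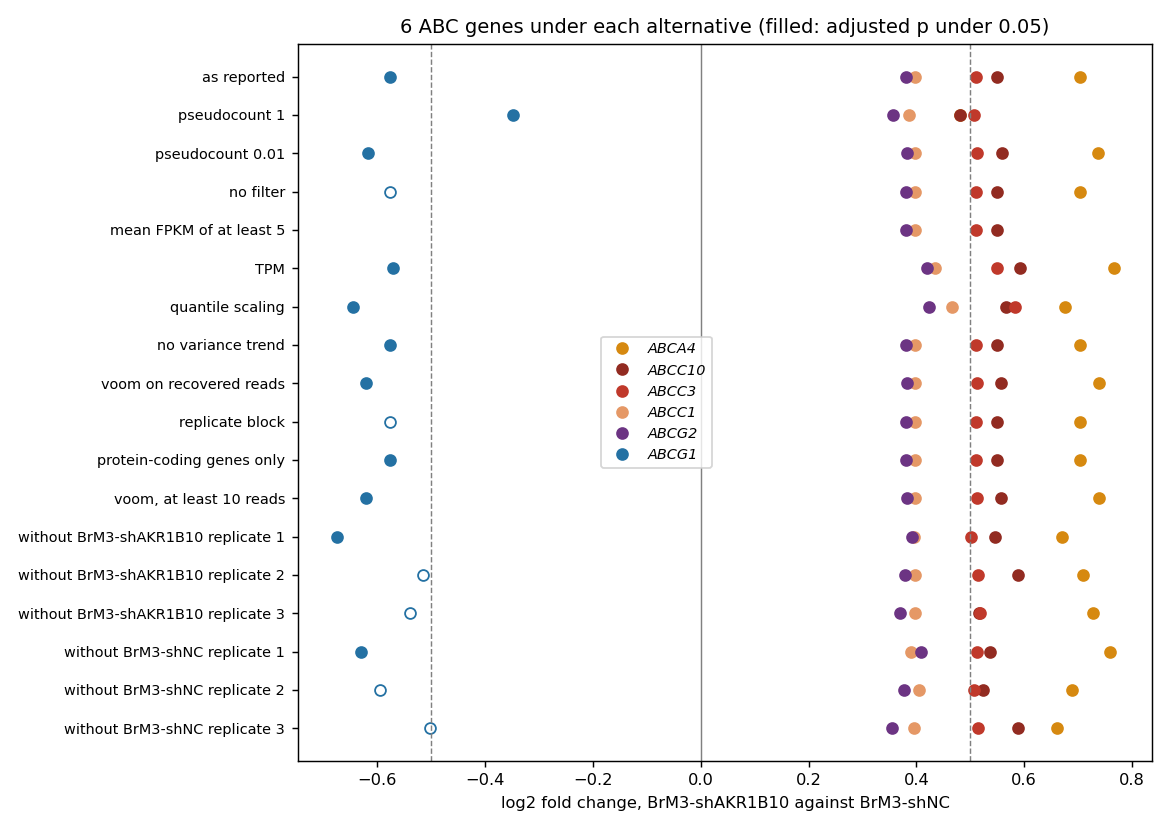
Log2 fold change of ABCA4, ABCC10, ABCC3, ABCC1, ABCG2 and ABCG1 (horizontal axis) as reported and under each of 17 alternative fits (rows), with dashed lines at 0.5 in either direction and filled points for an adjusted p under 0.05. ABCC3 stays at 0.50 to 0.58 in every fit, ABCG1 has open points in 6 fits, and with a pseudocount of 1 the points of ABCA4 and ABCC10 coincide at 0.48.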

How the data were processed

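The authors deposited 1 table of FPKM values per gene for 6 libraries, made from poly-T purified mRNA per the study's methods, with HISAT2 2.0.5 as aligner and featureCounts 1.5.0-p3 as counter per the labels. Strand use and the handling of overlapping genes in counting, and the genome build, are not given in the sources used here. All 58735 gene identifiers and positions match GENCODE 29 (Ensembl 94, GRCh38). FPKM times length gave whole reads for 100% of values (tolerance 0.02). The 13150 genes whose mean FPKM was 1 or more were compared on log2(FPKM + 0.1), which understates changes of low genes, with limma 3.58.1 in R 4.3.3 (lmFit, eBayes with a trend) and Benjamini-Hochberg adjustment. Errors are SE from this fit. Of 188 changed genes simulated for this comparison and tested, 180 were called with the right sign, with 6 false calls among 13151 genes. This count does not separate genes by size of change, and recovery near the fold threshold of 0.5 was not tested. Replicates differed beyond sampling noise (chi-square per gene 4.88 and 5.42 for the pairs with BrM3-shNC replicate 1, and 2.45 to 2.70 for the other pairs).

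Members, roles and lists were chosen with earlier results of these data known. Named with values in each library are called members, the main exporters, the 5 highest members and those within 0.1 of the fold threshold, together with called genes of the lists. Some genes covered by this rule are counted but not reported here. The results were recomputed with pseudocounts of 1 and 0.01, without the filter or with 5 FPKM, TPM and quantile scaling, no trend, voom, a replicate block, protein-coding genes only, other fold thresholds, and each library left out. Promoter and coding sequences were searched in Python 3.11.15 with pandas 2.3.3.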

Additional observations from a re-analysis of the deposited data

How the results depend on the processing

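Over 17 alternative fits, ABCC3 was called in all 17 (log2 fold change 0.50 to 0.58), ABCC10 in 16, ABCA4 in 15 of the 16 that could test it, and ABCG1 in 9 of 16. The adjusted p of ABCC1, ABCC5 and ABCG2 was under 0.05 in all 17. Members called lower numbered 1 as reported, 0 with a pseudocount of 1, with no filter, with a mean FPKM of at least 5 (where ABCG1 was not tested), with the replicate block or with a fold threshold of 1, and 4 with no fold threshold. Leaving out single libraries gave 0 to 1. Members called higher numbered 3 as reported, 1 with a pseudocount of 1, 0 with a fold threshold of 1 and 11 with no fold threshold, and 3 whichever single library was left out. By the adjusted p alone, members that fell numbered 4 as reported, 0 with no filter, and 5 with voom or protein-coding genes only. They numbered 2 without BrM3-shAKR1B10 replicates 2 or 3, and 1 without BrM3-shNC replicates 2 or 3. Those that rose numbered 11 as reported, 6 with no filter, 8 with a mean FPKM of at least 5, 8 and 9 without BrM3-shAKR1B10 replicates 1 and 3, and 13 with voom on genes with at least 10 reads. Numbers shared between groups did not pair the libraries (correlations of deviations -0.0155, 0.00388 and 0.00383). With the replicate block ABCG1 had an adjusted p of 0.060 and ABCA1 of 0.051, the members that fell by the adjusted p alone numbered 2, and SLC47A2 and SLC22A4 lost their calls. The block changed no other call among the members and the related lists, and gave 967 lower and 719 higher over all genes. AKR1B10 kept its call in every fit.

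The log2 fold changes given here that changed sign were of genes whose adjusted p was above 0.05. ABCF2 was at 0.0017 with TPM and 0.0058 with quantile scaling. With single libraries left out, the log2 fold change was between -0.075 and 0.0066 for ABCF2, between -0.013 and 0.010 for ABCA7 and between -0.085 and 0.00075 for ABCD4. Over all genes, 980 were called lower and 766 higher as reported, 873 and 902 with TPM, so that calls were more often higher in that scaling, 532 and 290 with a mean FPKM of at least 5, 708 and 497 with a pseudocount of 1, 205 and 168 with a fold threshold of 1, and 1361 and 1261 with voom on genes with at least 10 reads. By the adjusted p alone 3044 fell and 2548 rose as reported, 2556 and 2903 with TPM, and 2751 and 2790 with quantile scaling. The causes were not tested. Of the members under the filter, 11 never exceeded 3 reads, a depth at which a difference was not detectable, while ABCB9 held 141 to 209 reads per library.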
